A study of Homo sapiens with 38 samples.

Results

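Replication-dependent histone genes encode the bulk histones that package newly copied DNA. The group examined here was defined by gene symbol in GENCODE release 44: H1-1 to H1-6 and every gene named H2AC, H2BC, H3C or H4C with a number. This gave 69 of the 58425 genes with a transcript in the tables, of which 6 encode the linker histone H1, 17 encode H2A, 18 encode H2B, 13 encode H3 and 15 encode H4. The rule uses no measured value.

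The study compared RNA from nuclei and cytoplasm of unedited HCT116 cells, a line from a human colorectal cancer, with RNA of 4 HCT116 lines in which Argonaute genes had been knocked out by CRISPR editing. Argonaute proteins (AGO) carry the small RNAs of RNA interference. The wild-type cultures were at passages 27, 28 and 29. The AGO1 knockout line was at passages 6, 7 and 8, the AGO2 knockout line at passages 8, 9 and 10, the AGO1/2 knockout line, edited at both genes, at passages 9, 10 and 11, and the AGO1/2/3 knockout line, edited at AGO1, AGO2 and AGO3, at passages 11, 12 and 14. Each passage number of a line had 1 nuclear and 1 cytoplasmic library, so that each of the 10 groups held 3 libraries. The labels do not say whether both came from the same culture. Every genotype was a single line and no wild-type passage number recurred in a knockout line, so genotype, clone and passage cannot be told apart. The p-values below measure the spread between passages of 1 line.

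Messages of these genes differ from nearly all other messenger RNAs in their 3' end. They are as a rule not polyadenylated and end in a conserved stem-loop, which is bound by the stem-loop binding protein SLBP. The transcript is cleaved after the stem-loop with the help of the U7 small nuclear RNP. The genes lie in clusters, are transcribed together in S phase with the coactivator NPAT, and their messages are degraded when DNA replication stops. The libraries were made from total RNA from which ribosomal RNA had been removed, not from polyadenylated RNA, so transcripts without a poly(A) tail could be sequenced.

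The stem-loop was the feature that most of the members shared. The 16-letter pattern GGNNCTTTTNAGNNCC was found on the sense strand of at least 1 annotated transcript of 66 of the 69 members, and was absent from those of H2BC10, H3C6 and H4C13. Among all annotated transcripts, 0.0886% carried it, and among protein-coding ones 0.146%. In the transcript of each of the 66 genes that ends soonest after it, the stem-loop lay a median of 5 nt from the end, and within 6 nt in 61 genes. The forms below are shown because this element sets these messages apart. They lie at the 3' end of these transcripts in GENCODE release 44, in hg38 coordinates, with the 16-letter stem-loop in capitals and the flanking bases in lower case.
H1-2 (chr6:26055740-26055764, minus strand): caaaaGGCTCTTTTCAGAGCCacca
H1-4 (chr6:26157090-26157115, plus strand): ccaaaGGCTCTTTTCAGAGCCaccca
H2AC19 (chr1:149851569-149851594, plus strand): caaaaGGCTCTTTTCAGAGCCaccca
H2AC15 (chr6:27837880-27837905, minus strand): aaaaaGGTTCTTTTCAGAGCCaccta
H2BC5 (chr6:26158582-26158607, plus strand): ccaaaGGCTCTTTTAAGAGCCacgca
H2BC6 (chr6:26184205-26184230, plus strand): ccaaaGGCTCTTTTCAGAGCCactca
H3C2 (chr6:26031592-26031617, minus strand): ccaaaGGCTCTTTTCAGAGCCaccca
H4C11 (chr6:27824454-27824479, plus strand): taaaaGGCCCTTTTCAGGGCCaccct
H4C14 (chr1:149833027-149833052, plus strand): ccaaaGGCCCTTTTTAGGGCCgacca

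The form printed for H1-2, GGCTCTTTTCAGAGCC, was carried by 40 members: 4 of H1, 13 of H2A, 12 of H2B and 11 of H3. All 14 H4 genes with the stem-loop pattern had a GGCCC stem, 10 with the loop of H4C11 and 4 with that of H4C14. The form of H2BC5 was found in 9 members, 5 of them H2B genes. H2AC11, H2AC15 and H2AC20 each had a form of their own.

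Promoters were compared over the 300 bases from 250 before to 50 after the start site, as given in RefSeq for GRCh38.p14, in which 64 of the 69 members were matched. The letters CCAAT or ATTGG were present in 54 of these 64 members (84.4%), against 39.7% of 27305 genes. They occurred in every matched H1, H2A, H2B and H3 gene and in 3 of 13 H4 genes. The TATA letters TATAAA or TTTATA were present in 43 members (67.2%), against 14.0% of all genes. The octamer ATTTGCAT or its reverse complement ATGCAAAT, the letters recognised by OCT factors such as POU2F1 (OCT1), was present in 26 members (40.6%), against 2.19% of all genes. By family, it was found in 14 of 18 H2B and 11 of 16 H2A genes, in 1 of 11 H3 genes, whose window also holds the start of H2AC7, and in no H1 or H4 gene. A match is a run of letters, and binding was not measured here. The next windows are shown because neighbouring H2A and H2B genes are transcribed away from each other across the same octamer, here in capitals. Each is written 5' to 3' on the strand of its own gene.
H2BC21 (chr1:149886713-149886736, minus strand): gagccctaATTTGCATaaggtggt
H2AC20 (chr1:149886713-149886736, plus strand): accaccttATGCAAATtagggctc
H2BC4 (chr6:26124034-26124057, minus strand): catacctcATTTGCATagctctgc
H2AC6 (chr6:26124034-26124057, plus strand): gcagagctATGCAAATgaggtatg
H2BC11 (chr6:27132827-27132850, minus strand): ttcaccttATTTGCATaagcgatt
H2AC11 (chr6:27132827-27132850, plus strand): aatcgcttATGCAAATaaggtgaa

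In all, 8 such H2A and H2B pairs shared an octamer. The octamer was present in 16 of 42 matched members with a mean of at least 10 TPM and in 10 of 22 with less.

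TPM, which divides reads by transcript length and scales each library to the same total, allows levels of different genes to be compared. Of the 69 members, 50 had a mean above 1 TPM over the 30 libraries and 37 a mean above 100 TPM. The highest mean TPM was listed for H4C11 (1388), followed by H4C14 (1140), H1-2 (769) and H1-4 (766). In the other families the highest were H2AC19 (670) and H2AC18 (491), H2BC5 (718) and H2BC4 (647), and H3C2 (498) and H3C12 (250.3). The H1 family was uneven: H1-2 and H1-4 stood above 400 TPM in every library, whereas H1-6, a linker histone known from testis, had a mean of 1.84 TPM, H1-1 of 0.292 TPM and H1-3 and H1-5 almost no reads.

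**Figure D1:**
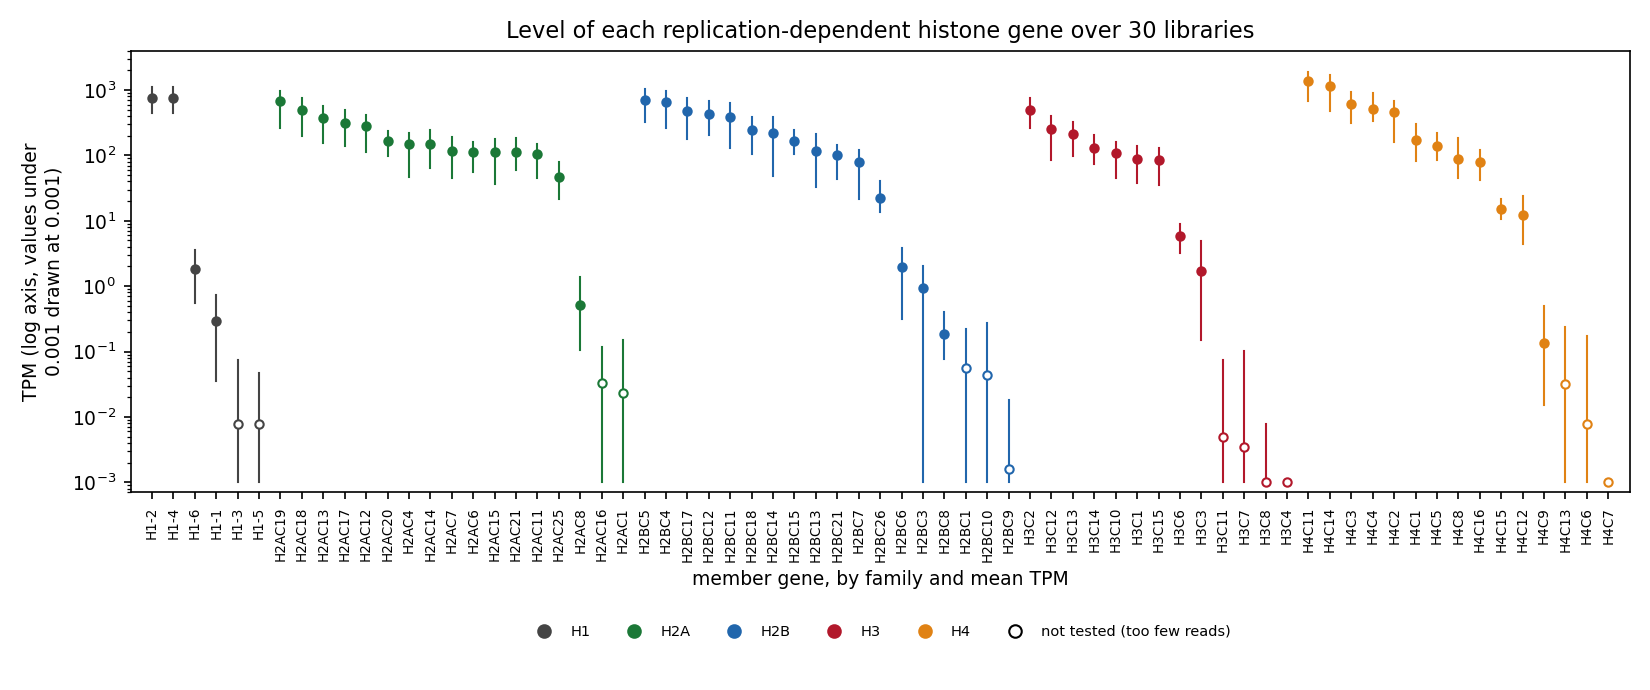
Mean TPM (points, log axis) and the lowest to highest value (lines) of each of the 69 members over 30 libraries, by family; open points mark members with too few reads to be tested. The 2 H4 genes with the highest means, H4C11 and H4C14, lie above 1000 TPM, while 14 members are open.

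The members with the fewest reads all lay on chromosome 6. In nuclear RNA 14 members had too few reads to be tested, and 13 of these had 16 reads or fewer over all 30 libraries. H3C4 and H4C7 were at 0 in every library, and H2BC1, a testis-type H2B, reached 44 reads in all. Of the 34 members between 25.7 and 26.3 Mb of chromosome 6, 10 were in this class: H1-3, H2AC1, H2BC1, H2BC9, H2BC10, H3C4, H3C7, H3C8, H4C6 and H4C7. Of the 21 between 27.1 and 27.9 Mb, 4 were: H1-5, H2AC16, H3C11 and H4C13. All 13 members on chromosome 1 and the single one on chromosome 12, H4C16, were tested.

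Several members cannot be separated by short reads. In GENCODE 44, every 75-base stretch of the H4C14 transcript that ends at the stem-loop is found in that of H4C15, and 100% of those of H2AC18 in H2AC19 and of H3C15 in H3C14. H4C11 and H4C12 share 91.4% and 92% of theirs. The split of reads within such a pair is uncertain. The tables use earlier versions of these transcripts, with a length of 1132 nt for H4C15 and 583 nt for H4C14 against 396 nt for both in GENCODE 44, and the mean level was 1140 TPM for H4C14 and 15.1 TPM for H4C15. The same holds for all 62 transcripts of the members in the tables that GENCODE 44 ends within 100 nt of the stem-loop. None of the 62 has its GENCODE 44 length: 38 are shorter, 33 of them with a length that is a multiple of 3, as for a coding length with no UTR, and 24 are longer, 16 of them by more than 100 nt. The shorter models held 34.8% and the longer ones 54.8% of the members' reads. Where the models used for counting end was therefore not known here, and TPM is relative to their lengths.

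The reads per library ranged from 20431557 to 26536692 in nuclear and from 39476205 to 43281746 in cytoplasmic RNA of wild-type cells, and were higher in all knockout libraries (31252459 to 54097984 nuclear, 66451720 to 79731793 cytoplasmic). The epithelial markers EPCAM (42.1 to 152.7 TPM), KRT8 and KRT18 were present in every library. CDH1, the epithelial cadherin, ranged from 0.681 to 29.8 TPM and the fibroblast collagen gene COL1A1 from 0.633 to 6.21 TPM. The leukocyte marker PTPRC was at 0.00413 TPM or less, while VIL1, a marker of intestinal brush border, was at 0.0773 TPM or less. Of the edited genes, AGO1 RNA fell in the lines edited at AGO1 (log2 fold change between -1.90 and -1.25 in nuclear and between -3.49 and -3.19 in cytoplasmic RNA). AGO2 RNA differed less: it fell by 0.47 on the log2 scale in nuclear and by 0.67 in cytoplasmic RNA of AGO2 knockout cells, and the cytoplasmic value of AGO1/2 knockout cells was 0.31 (-0.30 on the TPM scale). AGO3 RNA in AGO1/2/3 knockout cells was -0.30 in nuclear and 0.34 in cytoplasmic RNA on the same scale. RNA levels do not show whether the protein is made.

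The members held between 0.388 and 1.14% of the reads of a library. In nuclear RNA of wild-type cells, 0.555, 0.589 and 0.388% of reads fell on the 69 genes at passages 27, 28 and 29, and in cytoplasmic RNA 1.12, 1.14 and 0.668%. Passage 29 was thus the lowest of the wild type in both fractions. Of the members with enough reads to be tested, 50 of 55 in nuclear and 52 of 54 in cytoplasmic RNA had their lowest wild-type value at passage 29, with a median ratio of 0.663 and 0.581 to the mean of the other 2 passages. Other genes moved with it: in nuclear RNA, TPM at passages 27, 28 and 29 was 58.5, 54.1 and 36.0 for MCM2, a subunit of the replicative helicase, 113, 115 and 78.6 for PCNA, the replication clamp, and 45.0, 46.1 and 28.6 for SLBP. The part of these genes in the comparisons was not tested, and results that rest on the passage 29 libraries are given with and without them.

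Among the knockout lines the nuclear share was 0.697, 0.673 and 0.674% in AGO1, 0.615, 0.657 and 0.652% in AGO2, 0.770, 0.821 and 0.660% in AGO1/2 and 0.646, 0.681 and 0.644% in AGO1/2/3 knockout cells. Each of these 12 libraries lay above the 3 wild-type libraries. In cytoplasmic RNA the share was 1.06, 1.01 and 1.04% in AGO1, 1.12, 1.01 and 1.06% in AGO2, 0.882, 0.891 and 0.746% in AGO1/2 and 0.980, 0.883 and 0.783% in AGO1/2/3 knockout cells. All 12 lay above the wild-type library of passage 29 and below that of passage 28. In bulk RNA, fewer cells in S phase and less histone RNA per cell cannot be told apart.

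**Figure D2:**
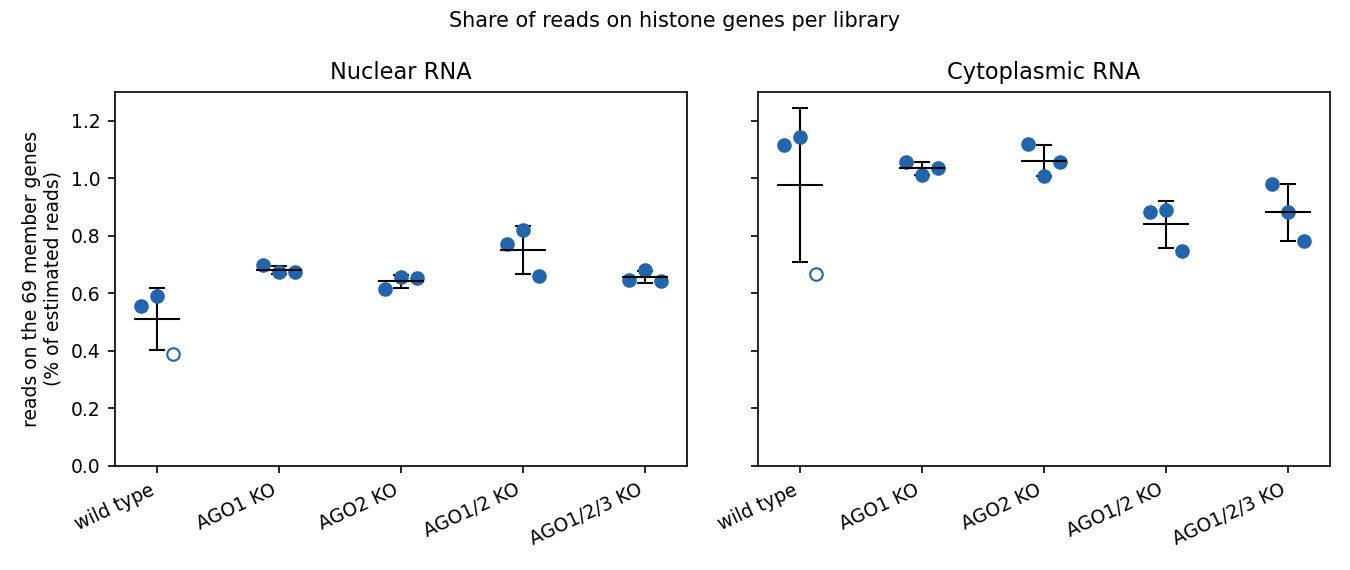
Percent of estimated reads on the 69 members in each library (points), with the mean and SD of 3 libraries (bars). Nuclear RNA is on the left and cytoplasmic RNA on the right. The open point in each panel is the wild-type library of passage 29. All nuclear knockout libraries lie above the wild-type ones, and the cytoplasmic wild-type libraries span 0.668 to 1.14%.

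Histone genes were higher in nuclear RNA of all 4 knockout lines than in wild type. Genes were called with edgeR's quasi-likelihood test at a Benjamini-Hochberg adjusted p of 0.05 over all genes tested, with TMM scaling. Of 55 members tested, 45 rose and none fell in AGO1 knockout cells, where 14.3% of all genes were called higher. In AGO2 knockout cells 31 rose and none fell, against 20.2% of all genes. In AGO1/2 knockout cells 42 rose and 1 fell, against 32.9% higher and 34.7% lower, and in AGO1/2/3 knockout cells 36 rose and none fell, against 29.1% higher. The members' median log2 fold change was 0.54, 0.42, 0.74 and 0.60 in this order, while the median of all genes was between -0.06 and -0.02. The 4 comparisons share the same 3 wild-type libraries, so they are not independent of each other. In either direction, 29.9% of all genes were called in AGO1, 40.2% in AGO2, 67.6% in AGO1/2 and 58.6% in AGO1/2/3 knockout cells.

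All 5 families took part. In AGO1 knockout cells 3 of 4 H1, 13 of 15 H2A, 12 of 15 H2B, 7 of 9 H3 and 10 of 12 H4 genes rose. In AGO2 knockout cells these counts were 2, 9, 8, 6 and 6, in AGO1/2 knockout cells 3, 12, 10, 9 and 8, and in AGO1/2/3 knockout cells 3, 10, 9, 7 and 7. H3 was thus the family with every tested gene called in AGO1/2 knockout cells, at a median of 0.85 on the log2 scale.

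The libraries of the knockout and the wild type did not overlap, with the knockout higher, for 49 of 55 members in AGO1 knockout cells, 34 in AGO2, 41 in AGO1/2 and 39 in AGO1/2/3 knockout cells. With the knockout lower there were 0, 0, 1 and 0 members. For all genes the share without overlap in either direction was 41.8, 48.4, 66.5 and 61%. Their share by direction is not given here. Without the nuclear wild-type library of passage 29, 39, 28, 42 and 38 members were still called higher, and 0, 0, 2 and 1 lower. The shares of all genes called that are given above belong to the fit with all libraries.

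The number of calls was lower with limma on log2(TPM + 1), which changes the test and the scale together. There 6 members were higher in AGO1 knockout cells and none lower, 1 was higher and 1 lower in AGO2, 41 and 1 in AGO1/2, and 20 and 1 in AGO1/2/3 knockout cells. On this scale the median of all genes was -0.17, -0.17, -0.07 and -0.16. The members' median stood above it by 0.52, 0.37, 0.83 and 0.53, against 0.58, 0.43, 0.80 and 0.64 in edgeR. The share of all genes called by limma is not given here.

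H4C14, the H4 gene with the most reads, shows the pattern by library. Its level in CPM, that is counts relative to the TMM-scaled library total, was 343, 365 and 253 in nuclear RNA of wild-type cells. It was 535, 504 and 508 in AGO1, 459.9, 482 and 491 in AGO2, 673, 737 and 581 in AGO1/2 and 539.9, 595 and 559 in AGO1/2/3 knockout cells. No knockout library overlapped the wild type. The log2 fold change was 0.69 ± 0.11 (SE, adjusted p = 0.00039), 0.58 ± 0.11 (adjusted p = 0.00087), 1.05 ± 0.11 (adjusted p = 8.4e-07) and 0.82 ± 0.11 (adjusted p = 1.53e-05). H4C11 was at 225, 256 and 173 CPM in wild-type cells and between 263 and 426 CPM in the 12 knockout libraries. Its log2 fold change was 0.32, 0.57, 0.86 and 0.78, and all 4 were called.

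Among the H2B genes, H2BC5 was at 189, 206 and 131 CPM in wild-type nuclear RNA. It was at 273, 269 and 257 in AGO1, 254, 260.4 and 265 in AGO2, 358, 393 and 305 in AGO1/2 and 272, 300.2 and 274 in AGO1/2/3 knockout cells. Again every knockout library was above every wild-type library. The log2 fold change was 0.60 ± 0.13, 0.57 ± 0.13, 1.005 ± 0.13 and 0.68 ± 0.13 (SE), with adjusted p of 0.00247, 0.00248, 5.08e-06 and 0.000267. H2BC4 was at 234, 239.5 and 134 CPM in wild-type cells, between 265 and 404 CPM in knockout cells, and was called in all 4 lines (0.54, 0.42, 0.83 and 0.53).

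Of the H2A genes, H2AC19 was at 210.4, 182 and 132 CPM in wild-type nuclear RNA and at 320.3, 305 and 298 in AGO1, 259.6, 285 and 259 in AGO2, 386, 420.3 and 299 in AGO1/2 and 289, 296 and 318 in AGO1/2/3 knockout cells. The ranges did not overlap. The log2 fold change was 0.81, 0.61, 1.07 and 0.78, called in each line. For its near-copy H2AC18, whose reads are shared with H2AC19, the values were 0.52, 0.44, 0.97 and 0.82, and that of AGO2 knockout cells was not called (adjusted p = 0.058, edgeR).

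The H3 gene with the highest TPM, H3C2, was at 109, 113 and 80.4 CPM in wild-type nuclear RNA, at 145, 146 and 143 in AGO1, 122.8, 134 and 132 in AGO2, 173, 187 and 144 in AGO1/2 and 141, 150 and 149.8 in AGO1/2/3 knockout cells. It was called in all 4 lines, with a log2 fold change of 0.52, 0.36, 0.73 and 0.54 and an SE of 0.11 each. H3C12 varied more: the wild-type libraries were at 62.7, 63.8 and 25.8 CPM, those of AGO2 knockout cells at 59.0, 70.8 and 62.4, and the groups overlapped. Its log2 fold change was called in AGO1 (0.67) and AGO1/2 (0.70) knockout cells, and was 0.33 (adjusted p = 0.26) in AGO2 and 0.51 (adjusted p = 0.062) in AGO1/2/3 knockout cells.

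The linker histone gene H1-2 was at 363, 391 and 265 CPM in wild-type nuclear RNA, at 496, 491 and 469 in AGO1, 406, 427 and 434 in AGO2, 574, 618 and 512 in AGO1/2 and 469, 526 and 518 in AGO1/2/3 knockout cells. The lowest knockout library, of AGO2 knockout cells, was close to the highest wild-type one. The log2 fold change was 0.52, 0.31, 0.74 and 0.57 and passed the test in each line. H1-4, at 459, 468 and 334 CPM in wild-type cells, was at 529 to 768 CPM in knockout cells and was also called in each (0.42, 0.42, 0.73 and 0.54).

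The largest called nuclear rises in 3 of the 4 lines were those of weakly listed members. With AGO1/2 and with AGO1/2/3 knocked out the largest was that of H3C3, by 1.49 ± 0.40 and 1.57 ± 0.40 on the log2 scale, from 0.387, 0.292 and 0.0449 CPM in wild-type cells to 0.627, 0.641 and 0.860 CPM in AGO1/2 and 0.998, 0.575 and 0.674 CPM in AGO1/2/3 knockout cells. H1-6 was next in both (1.19 and 1.297) and had the largest called rise in AGO1 knockout cells (0.83 ± 0.27, adjusted p = 0.0333 in edgeR). In AGO2 knockout cells H1-6 was at 0.555, 0.428 and 0.604 CPM, within the wild-type range of 0.584 to 1.20 CPM or below it. H3C3 had 11, 7 and 1 reads and H1-6 had 34, 14 and 13 reads in the nuclear wild-type libraries.

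Other members named by size of change were better covered. In AGO1 knockout cells H2AC4 rose by 0.82 on the log2 scale, from 29.6, 34.2 and 13.3 to 46.0, 43.8 and 47.1 CPM. In AGO2 knockout cells H3C15 rose by 0.78, H2BC7 by 0.75 and H4C2 by 0.68. H2BC7 went from 73.7, 77.9 and 29.1 CPM to 100.5, 102 and 101.7 CPM, whereas H3C15, which shares its reads with H3C14, spread from 88.6 to 202 CPM within AGO2 knockout cells. In AGO1/2 knockout cells H2BC11 rose by 1.14, from 70.6, 73.7 and 35.1 to 134, 156 and 107 CPM. In AGO1/2/3 knockout cells H3C6, 1 of the 3 members without a match to the stem-loop pattern, rose by 0.94 ± 0.09 (adjusted p = 2.5e-07, edgeR). It went from 7.77, 7.19 and 6.78 to 12.9, 13.4 and 15.5 CPM.

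Other genes that rose in the same nuclear libraries included markers of the cytoplasm. GAPDH, a glycolytic enzyme gene, rose by 0.60, 0.60, 1.11 and 0.91 on the log2 scale in the lines in the same order, and RPLP0, a ribosomal protein gene, by 0.37, 0.28, 0.33 and 0.40. ACTB rose by 1.17 in AGO1/2 and 0.86 in AGO1/2/3 knockout cells and was not called in the other lines (0.16 and -0.16). The nuclear RNA MALAT1 fell by 0.53, 0.49, 1.18 and 0.95, and NEAT1 by 1.16 in AGO1, 1.27 in AGO1/2 and 0.71 in AGO1/2/3 knockout cells, with -0.27 (not called) in AGO2. The part of these fraction markers in the histone results was not tested.

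Some replacement histone genes, which are made outside S phase as well, rose there too, while others were not called or fell. H2AX rose by 0.31, 0.36, 0.87 and 0.63 on the log2 scale in nuclear RNA of the 4 lines, and was not called in cytoplasmic RNA of any. It also carries the stem-loop pattern, in 1 protein-coding transcript. H3-3B rose by 0.96 in AGO1/2 and by 0.77 in AGO1/2/3 knockout cells, and was not called in AGO1 (0.15) and AGO2 (0.13). CENPA, the centromeric H3, rose by 0.81 in AGO1/2 knockout cells.

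The 1 member that fell in nuclear RNA was H4C15 in AGO1/2 knockout cells, by 0.33 ± 0.10 on the log2 scale (adjusted p = 0.0088, edgeR). It went from 24.4, 25.9 and 20.7 CPM to 19.1, 19.9 and 17.5 CPM. Its near-copy H4C14 rose in the same cells. On the TPM scale the sign of the H4C15 change turned, to 0.14.

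**Figure D3:**
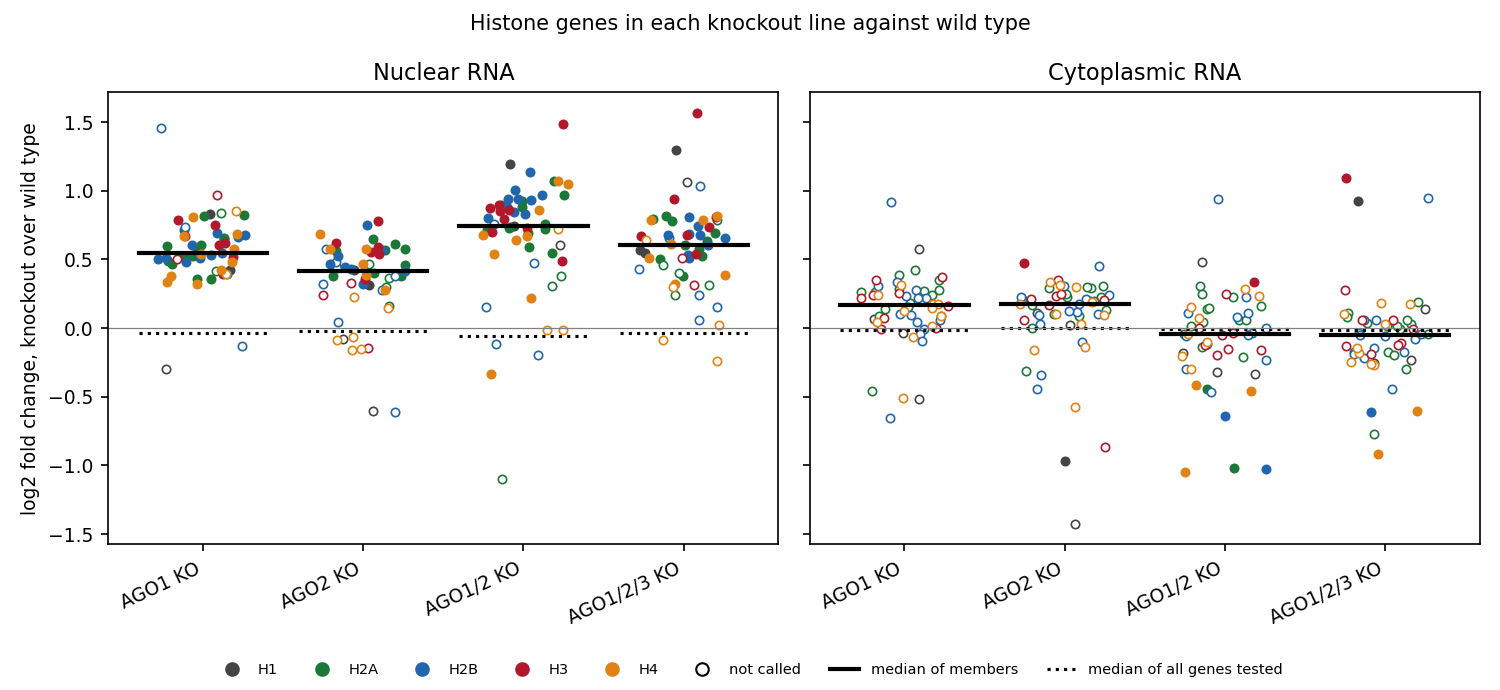
Log2 fold change of each tested member in each knockout line over wild type (points; filled where called by edgeR at an adjusted p of 0.05, coloured by family), in nuclear (left) and cytoplasmic RNA (right). Thick lines are the median of members and dotted lines the median of all genes tested; the nuclear medians of members lie at 0.42 to 0.74 and the cytoplasmic ones at -0.05 to 0.17.

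In cytoplasmic RNA few members changed. In AGO1 knockout cells none of 54 members was called by edgeR, where 12.4% of all genes were called in either direction, 4.28% higher and 8.13% lower. At an unadjusted p under 0.05 there was 1 higher and 1 lower, DESeq2 called none and limma on log2(TPM + 1) called 1. In AGO2 knockout cells 1 member rose and 1 fell, against 16.1% of all genes (7.07% higher, 9% lower), in AGO1/2 knockout cells 1 rose and 7 fell, against 49.2% (23.9% higher, 25.4% lower), and in AGO1/2/3 knockout cells 2 rose and 3 fell, against 38.7% (18.6% higher, 20% lower). The members' median log2 fold change was 0.17, 0.17, -0.04 and -0.05. H4C14, the member with the most wild-type reads there, was at 855, 877 and 537 CPM in wild-type and at 663 to 891 CPM in all knockout libraries, and the groups overlapped.

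The wild-type library of passage 29 decided most of these cytoplasmic counts. Without it, no member was called in AGO1, 1 rose and 4 fell in AGO2, none rose and 22 fell in AGO1/2, and 1 rose and 23 fell in AGO1/2/3 knockout cells. On the log2(TPM + 1) scale, with all libraries, none rose and 21 fell in AGO1/2 and 1 rose and 12 fell in AGO1/2/3 knockout cells. There the median of all genes was -0.20 and -0.13, and that of the members -0.39 and -0.21. The shares of all genes given above are those of edgeR with all libraries. No such share is given here for the fits without passage 29 or for the TPM scale.

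H4C8 was the member that fell most in cytoplasmic RNA of both lines. It was at 58.8, 57.2 and 37.0 CPM in wild-type cells, at 26.53, 27.9 and 19.6 CPM in AGO1/2 and at 33.4, 26.6 and 21.3 CPM in AGO1/2/3 knockout cells. Neither group overlapped the wild type, and the fall was 1.05 ± 0.19 (adjusted p = 0.00038) and 0.91 ± 0.19 (adjusted p = 0.0016, both edgeR). In AGO1/2/3 knockout cells H2BC26 fell by 0.61, from 115.6, 118 and 75.2 CPM to 73.0, 68.6 and 60.9 CPM, and H4C4 by 0.60. The AGO1/2 knockout line also had lower H2BC8 (a fall of 1.03) and H2AC8 (1.02), both at less than 1 CPM in every library.

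The cytoplasmic rises were those of low members. H3C6 rose by 0.47 in AGO2 and by 0.34 in AGO1/2 knockout cells, from 9.20, 8.96 and 6.54 CPM to 12.2, 10.9 and 11.2 CPM and to 10.7, 11.03 and 9.54 CPM. On the TPM scale the sign in AGO1/2 knockout cells turned, to -0.20. H1-6 fell by 0.97 in AGO2 knockout cells (1.41, 1.19 and 1.03 CPM in wild type, 0.743, 0.524 and 0.586 CPM in the knockout) and rose by 0.93 in AGO1/2/3 knockout cells (3.08, 2.12 and 1.71 CPM). H3C3 rose by 1.09 ± 0.40 in AGO1/2/3 knockout cells (adjusted p = 0.041, edgeR), from 0.730, 0.696 and 0.229 CPM to 1.82, 0.904 and 0.809 CPM.

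Whether the nuclear and the cytoplasmic effect differed was tested directly, as the knockout effect in nuclear RNA minus that in cytoplasmic RNA, in 1 fit over all 30 libraries. In AGO1/2 knockout cells the difference was positive for 31 members and negative for 1, where 36.5% of all genes were called in either direction and 19.6% upwards. In AGO1/2/3 knockout cells it was positive for 18 and negative for 1, where 22.7% of all genes were called and 11.7% upwards. No member was called for AGO1 (0.662% of all genes) or AGO2 knockout cells (5.76%, made up of 2.63% upwards and 3.13% downwards), with DESeq2 also at 0 in both. At an unadjusted p under 0.05 there were 16 positive and no negative members for AGO1 and 2 positive and no negative members for AGO2. The members' median difference was 0.41 and 0.27 for AGO1 and AGO2, 0.74 for AGO1/2 and 0.58 for the triple knockout. With culture passage as a replicate block, which pairs libraries of the same passage number, 21 positive and no negative members were called for AGO1, 8 and none for AGO2, 46 and 1 for AGO1/2 and 45 and 1 for AGO1/2/3 knockout cells. The shares of all genes given here are those of the fit without the block.

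The fraction markers differed between fractions as well. The difference of GAPDH was 0.39 for AGO2, 1.001 for AGO1/2 and 0.59 for AGO1/2/3, all called, and 0.42 for AGO1 (adjusted p = 0.063, edgeR). That of MALAT1 was -1.03, -1.08, -1.71 and -1.35, called in all 4 lines. NEAT1 was called for AGO1/2 (-1.27) and AGO1/2/3 (-0.99), RPLP0 for AGO1/2 (-0.31) and ACTB for no line. Their part in the members' differences was not tested. The replacement histone gene H3-3A had a difference of 0.87 for AGO1/2 and 0.64 for AGO1/2/3.

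H1-4 was among the 3 members with the smallest adjusted p in AGO1/2 knockout cells, with a difference of 0.98 ± 0.19 (adjusted p = 0.00028, edgeR). H4C1 (0.98 ± 0.18) and H2BC15 (0.96 ± 0.15, adjusted p = 1.53e-05) were the others. H2BC15, scaled over both fractions together, was at 108, 112 and 87.7 CPM in nuclear and at 264, 275 and 205 CPM in cytoplasmic RNA of wild-type cells. The AGO1/2 knockout libraries were at 175, 185 and 150.3 CPM in nuclear and at 223, 227 and 185 CPM in cytoplasmic RNA. The nuclear libraries thus moved up without overlap while the cytoplasmic ranges overlapped. In AGO1/2/3 knockout cells H2BC15 (0.69), H4C1 (0.77) and H2BC26 (0.68) had the smallest adjusted p.

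These counts depended on single libraries in AGO1/2/3 knockout cells, where they fell to 8 positive and 1 negative without the nuclear wild-type library of passage 29, and rose to 40 positive and none negative without the cytoplasmic one, with which left out the AGO1/2 counts rose to 47 and 1. Without both, 39 were positive and 1 negative in AGO1/2/3, 42 and 1 in AGO1/2, 4 and none in AGO1 and 3 and none in AGO2 knockout cells. The shares of all genes given above are those of the fit with all libraries.

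Members were lower in nuclear than in cytoplasmic RNA in every genotype, relative to all genes. In wild-type cells 50 of 55 members were lower and 3 higher, where 37.3% of all genes were called lower and 39.6% higher. In AGO1 knockout cells 46 were lower and 3 higher (34.5 and 40% of all genes), in AGO2 49 and 3 (33.6 and 39.8%), in AGO1/2 42 and 2 (31.6 and 36.9%) and in AGO1/2/3 knockout cells 47 and 2 (34.1 and 36.1%). In either direction 76.8, 74.5, 73.4, 68.6 and 70.2% of all genes were called in the 5 genotypes in this order. The median log2 ratio of members was -1.45 in wild-type, -1.02 in AGO1, -1.18 in AGO2, -0.71 in AGO1/2 and -0.88 in AGO1/2/3 knockout cells.

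Both fractions were sequenced to a chosen depth, so these ratios compare shares of each fraction and not amounts per cell. For the AGO1/2 line the direction turned with limma on TPM. With log2(TPM + 1), 13 members were higher and none lower there, and the median of all genes was 0.48, above the members' median of 0.30. In the other lines 46 members were lower on that scale in wild-type cells, 32 with AGO1 knocked out, 39 with AGO2 and 4 with AGO1/2/3, and 1 was higher in each.

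By library, H4C14 was at 299.5, 321 and 212 CPM in nuclear and 999.8, 1033 and 621 CPM in cytoplasmic RNA of wild-type cells, when both fractions were scaled together. That is a log2 ratio of -1.67 ± 0.15 (adjusted p = 1.51e-10, edgeR), and the fractions did not overlap. The largest wild-type ratios were those of H4C1 (-1.78), H3C15 (-1.75) and H2AC8 (-1.68). In the knockout lines they were those of H4C1, H2AC7 and H2AC17 with AGO1 (-1.32, -1.32 and -1.24) and with AGO2 knocked out (-1.40, -1.61 and -1.35), of H2AC8, H2BC3 and H2AC15 with AGO1/2 (-1.85, -1.19 and -1.08) and of H2AC7, H3C3 and H2AC13 with AGO1/2/3 (-1.18, -1.16 and -1.12). H1-2 and H1-4 had ratios of -1.19 and -1.23 in wild type. The ratios of H1-2 (-0.19) and H1-4 (-0.25) in AGO1/2 knockout cells were not called.

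The 3 members H4C9, H2BC6 and H4C15, went the other way. H4C9 was higher in nuclear RNA in every genotype, with log2 ratios of 1.61, 2.18, 0.98, 2.09 and 1.64 in wild-type cells and the AGO1, AGO2, AGO1/2 and triple knockout lines, but on few reads and on a model of 1294 nt (397 nt in GENCODE 44): the wild-type libraries held 8, 6 and 8 nuclear and 6, 1 and 2 cytoplasmic reads. H2BC6 was also higher in each (0.65, 1.27, 0.80, 0.66 and 0.81), at 2.95, 3.63 and 3.05 CPM in nuclear and 2.53, 2.12 and 1.51 CPM in cytoplasmic RNA of wild-type cells. H4C15 was higher in wild-type (0.71), AGO1 (0.82) and AGO2 (0.55) knockout cells. With AGO2 knocked out the sign turned on the TPM scale for H2BC6 (-0.31) and H4C15 (-0.12).

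**Figure D4:**
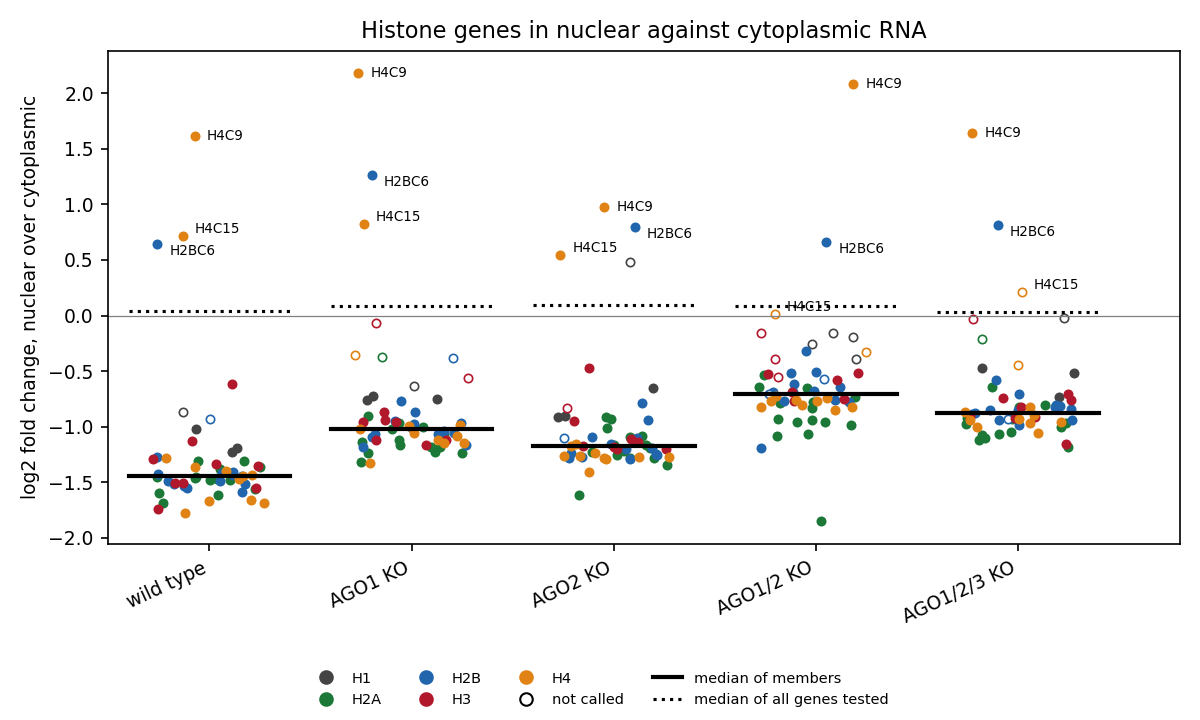
Log2 ratio of nuclear to cytoplasmic level of each tested member in the 5 genotypes (points; filled where called by edgeR, coloured by family), with the median of members (thick lines) and of all genes (dotted lines). The members' medians lie between -1.45 and -0.71, and the members called above 0 are H4C9, H2BC6 and, in 3 genotypes, H4C15.

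Nuclear reads of H2BC6 and H4C15 were in large part assigned to transcripts that run past the stem-loop. In wild-type cells the mean share of H2BC6 reads on them was 77.8% in nuclear and 41.9% in cytoplasmic RNA. For H4C15 it was 62.1% in nuclear and 72.5% in cytoplasmic RNA, so for this gene the share was not higher in nuclei. The long transcripts named here, ENST00000634910 of H2BC6, ENST00000612061 of H4C15, ENST00000358064 of H4C16 and ENST00000618193 of H4C14, have the same version and length in the tables and in GENCODE 44. H2BC6 has a long transcript of 2585 nt that continues for 430 nt after the stem-loop printed above. In RPM, that is reads relative to the unscaled library total, it was at 2.53, 3.66 and 3.24 in nuclear and 0.749, 0.790 and 0.661 in cytoplasmic RNA of wild-type cells, whereas its other transcript, of 497 nt in the tables and 470 nt in GENCODE 44, was at 1.09, 0.813 and 0.723 and at 1.51, 1.06 and 0.666. The long transcript was higher in nuclear RNA in each of the 5 genotypes with no overlap (2.22 to 5.30 nuclear and 0.575 to 1.28 cytoplasmic over 15 libraries each). An exact two-sided permutation test gave p = 0.1 in each genotype, the smallest that 3 against 3 libraries allow. When the long transcript was left out, the ratio of H2BC6 became -0.77 in wild-type cells.

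For H4C15, a transcript of 1694 nt that continues for 1314 nt was at 16.4, 17.4 and 13.3 RPM in nuclear and at 0.532, 1.04 and 1.11 in cytoplasmic RNA of wild-type cells. In AGO1/2 knockout cells it was at 7.14, 5.77 and 8.40 in nuclear RNA, below the 3 wild-type libraries. Another transcript of H4C15, ENST00000621520, continues for 240 nt after the stem-loop. It had a mean of 290 reads over all libraries, against 280 for that of 1694 nt. H4C16 has a transcript that continues for 1510 nt, at 1.49, 2.06 and 1.57 in nuclear and 0.0292, 0 and 0 in cytoplasmic RNA of wild-type cells, against 28.3, 30.3 and 22.8 nuclear for ENST00000539745, a model of 577 nt in the tables and 412 nt in GENCODE 44. The long transcripts of H4C15 and H4C16 were apart between fractions in every genotype (exact permutation p = 0.1, the smallest possible). That of H4C14, 1547 nt long, overlapped between fractions in wild-type cells, at 0, 0.695 and 3.67 RPM in nuclear and 0.112, 0 and 0 in cytoplasmic RNA (exact permutation p = 0.4), and also with AGO1/2 knocked out (p = 0.4, exact test).

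The reverse was seen for a transcript of H2BC18 that lacks the stem-loop pattern, ENST00000469483. It was at 0 in the 3 nuclear libraries of wild-type cells and at 53.0, 65.2 and 35.3 RPM in the cytoplasmic ones. In nuclear RNA of AGO1/2 knockout cells it was at 13.5, 15.5 and 13.5. The estimates for transcripts of 1 gene depend on each other, because Salmon divides shared reads among them. Over all members, the mean share of reads on transcripts not annotated to end at the stem-loop differed little between fractions. These include transcripts without the stem-loop pattern. In wild-type cells the share was 10.99% in nuclear and 10.62% in cytoplasmic RNA, and by TPM 4.05 and 4.04%. In AGO1/2 knockout cells it was 10.60 and 10.11% of reads. Among genes with both kinds of transcript, it was 12.43 and 10.53% of reads in wild-type cells.

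**Figure D5:**
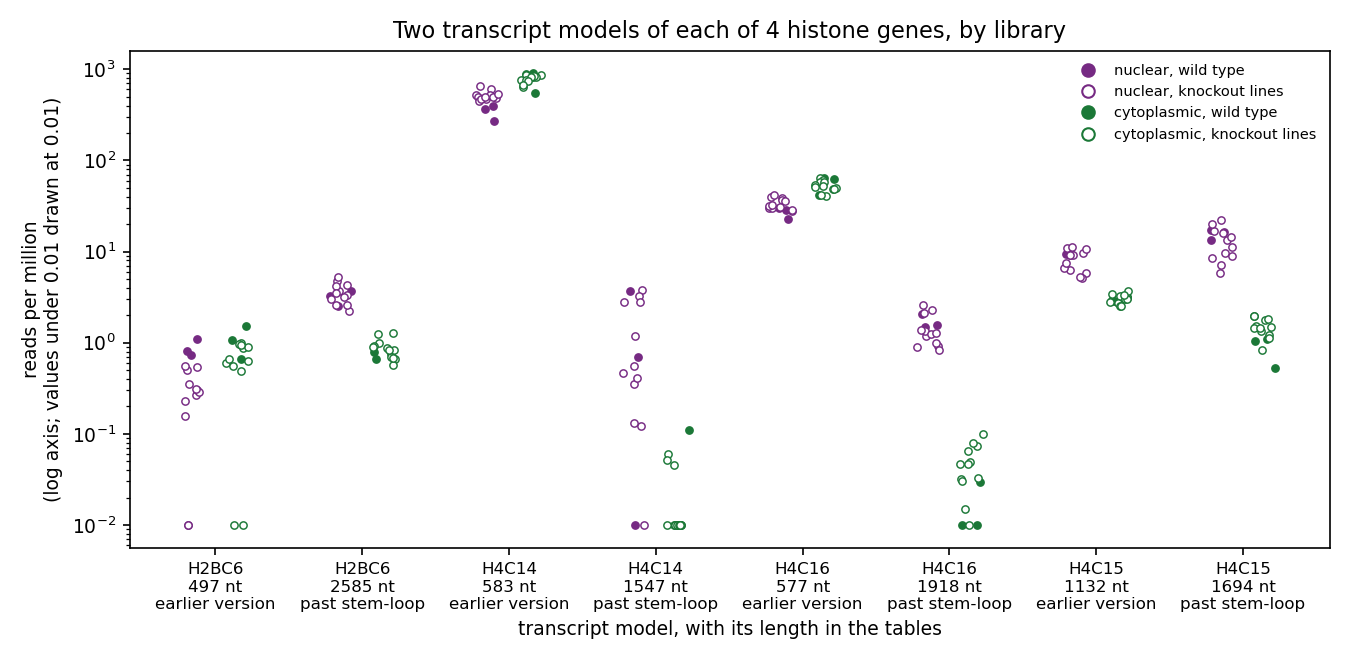
RPM (log axis) of 2 transcript models each of H2BC6, H4C14, H4C16 and H4C15, with 1 point per library: an earlier version of the transcript that GENCODE 44 ends at the stem-loop, and a long transcript that runs past it; purple is nuclear and green cytoplasmic RNA, filled for wild type and open for knockout lines. The long transcripts of H2BC6, H4C16 and H4C15 are higher in nuclear RNA with no overlap within any genotype, while that of H4C14 overlaps between fractions in wild-type and AGO1/2 knockout cells. Only these genes are shown, and the share over all members is given in the text.

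Genes that make or handle histone RNA were examined as lists. Of 14 tested genes for histone 3' end processing, 9 rose and none fell in nuclear RNA of AGO1 knockout cells, 7 and none in AGO2, 11 and 2 in AGO1/2 and 6 and 2 in AGO1/2/3 knockout cells. In cytoplasmic RNA the counts were 1 and 0, 0 and 0, 2 and 6, and 0 and 7. Of all genes, 14.3, 20.2, 32.9 and 29.1% rose and 15.6, 19.9, 34.7 and 29.5% fell in nuclear RNA, in the same order. For cytoplasmic RNA the shares of all genes were 4.28, 7.07, 23.9 and 18.6% higher and 8.13, 9, 25.4 and 20% lower. SLBP rose in nuclear RNA of all 4 lines (0.39, 0.35, 0.81 and 0.50 on the log2 scale) and was not called in cytoplasmic RNA (0.13, 0.05, -0.22 and -0.17). SNRPB, which encodes Sm proteins shared by spliceosomal and U7 particles, rose by 0.48, 0.35, 0.83 and 0.60 in nuclear RNA. RNU7-1, the gene of the U7 RNA itself, was listed at 0 in all 30 libraries.

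Of 8 genes for histone gene transcription, 1 rose and 1 fell in nuclear RNA of AGO1, and 3 rose and 2 fell in every other line. Of all genes, 14.3, 20.2, 32.9 and 29.1% rose and 15.6, 19.9, 34.7 and 29.5% fell in nuclear RNA of the 4 lines. NPAT fell in AGO1/2 (-0.38 in nuclear and -0.36 in cytoplasmic RNA) and AGO1/2/3 knockout cells (-0.35 and -0.33). POU2F1, which binds the octamer shown above, fell in nuclear RNA of all 4 lines (by 0.21 in AGO1, 0.40 in AGO2, 0.75 in AGO1/2 and 0.77 in AGO1/2/3 knockout cells). Among 18 genes for translation and decay of histone messages, 4 rose and 2 fell, 4 and 3, 9 and 2, and 4 and 3 in nuclear RNA of the lines in the same order. In cytoplasmic RNA they were 0 and 0, 1 and 1, 1 and 8, and 0 and 5. There 4.28, 7.07, 23.9 and 18.6% of all genes rose and 8.13, 9, 25.4 and 20% fell.

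Of 16 S-phase genes, 10 rose and none fell in nuclear RNA of AGO1, 10 and none in AGO2, 12 and 1 in AGO1/2 and 9 and 2 in AGO1/2/3 knockout cells. In cytoplasmic RNA 1 rose and none fell in each of AGO1 and AGO2 knockout cells. There 1 rose and 10 fell in AGO1/2, and none rose and 7 fell in AGO1/2/3 knockout cells. Of all genes, 14.3, 20.2, 32.9 and 29.1% rose and 15.6, 19.9, 34.7 and 29.5% fell in nuclear RNA, in the same order. For cytoplasmic RNA the shares of all genes were 4.28, 7.07, 23.9 and 18.6% higher and 8.13, 9, 25.4 and 20% lower. The medians of the list were 0.37, 0.42, 0.50 and 0.29 in nuclear and 0.13, 0.09, -0.52 and -0.29 in cytoplasmic RNA, beside members' medians of 0.54, 0.42, 0.74 and 0.60 and of 0.17, 0.17, -0.04 and -0.05. Their part in the histone results was not tested.

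Of 9 histone chaperone genes, 1 rose and none fell in nuclear RNA of AGO1, 6 and none in AGO2, 5 and 1 in AGO1/2 and 2 and 1 in AGO1/2/3 knockout cells. Of all genes 14.3, 20.2, 32.9 and 29.1% were called higher and 15.6, 19.9, 34.7 and 29.5% lower in these comparisons. In cytoplasmic RNA 1 chaperone gene rose and none fell in AGO1 and in AGO2, and 1 rose and 6 fell in each of the other lines. Of all genes, 4.28, 7.07, 23.9 and 18.6% rose there and 8.13, 9, 25.4 and 20% fell, in the same order. NASP, which carries H3 and H4, fell by 0.71 in AGO1/2 and by 0.51 in AGO1/2/3 knockout cells, and IPO4, an importin for histones, by 0.64 and 0.38.

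Of the 5 fraction markers, NEAT1 and MALAT1 were higher in nuclear RNA and GAPDH and RPLP0 in cytoplasmic RNA of wild-type cells by TPM (MALAT1 at 2687, 2949 and 3486 against 138, 141 and 79.9), while ACTB was higher in nuclear RNA (77.6, 99.5 and 56.7 against 32.3, 27.2 and 26.8).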

How the data were processed

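RNA-seq was analysed for 30 libraries, and 8 eCLIP samples were not used here. Per the study's methods, stranded total RNA libraries depleted of ribosomal RNA were sequenced as paired ends, aligned to hg38 with STAR and quantified with Salmon; the submitters' processing notes name STAR 2.5.3a and Salmon 0.11.0. The estimated counts, as deposited, are reads that Salmon assigned to each transcript, without scaling between libraries. The TPM values, as deposited by the authors, divide these by effective transcript length and scale each library to 1 total. Where the reads of near-identical genes were divided, the division is an estimate.

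Transcripts were assigned to genes by identifier with GENCODE release 44, in which 196040 of 200401 were found; the other 4361 held 2.23 to 4.01% of reads and were left out. Estimated counts were summed per gene, rounded and tested with edgeR 4.0.16 (R 4.3.3; quasi-likelihood test, TMM, filterByExpr at 10 counts; the 15 libraries of a fraction were fitted together, and all 30 for fraction comparisons and differences of effects). The threshold was an adjusted p of 0.05 (Benjamini-Hochberg, all genes tested). SE is the log2 fold change divided by the square root of the F statistic. Single transcripts were compared with an exact two-sided permutation test (scipy 1.17.1). No pair of replicates agreed within sampling noise (chi-square per gene of 4.83 or more), so each library was counted once.

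The members described in full are the 2 with the highest mean TPM in each family. To these were added the 3 called members with the largest change in each direction in each comparison. The 3 with the smallest adjusted p among called differences of effects were added too. Of other genes, at most 3 called examples a list are named. SLBP, NPAT, RNU7-1, AGO1, AGO2 and AGO3 are named besides, though not every comparison is given for them. H4C9, H4C16, H2BC18, MCM2, PCNA, ACTB, GAPDH, RPLP0, MALAT1 and NEAT1 were also named for the fraction, transcript or passage values given with them. Counts over the list of replacement histone genes are not reported here. The members and gene lists were chosen with earlier results of these data known. The alternatives were DESeq2 1.42.0, RLE size factors, limma 3.58.1 on log2(TPM + 1) and log2(TPM + 0.1), no low-count filter, only the groups compared, only transcripts that GENCODE 44 ends within 100 nt of the stem-loop, each library left out in turn and culture passage as a replicate block. Leaving out both wild-type libraries of passage 29 was added after seeing the data.

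Pairing of the 2 fractions of a passage number was checked by the correlation of their departures from group means. For the wild type r was 0.354, 0.354 and 0.649 for passages 27, 28 and 29, and they were taken as paired. The mean r with the other passages was -0.054, -0.053 and -0.4945. Passage 29 lay apart from the other wild-type libraries, which draws the departures of passages 27 and 28 together. The r of passages 27 and 28 is thus weak evidence of pairing. In every knockout line at least 1 pair was under 0.1. The scripts were tested on simulated data with 100 genes changed by a fold of 2 and 100 by a fold of 4, of which 84 and 99% were recovered in the nuclear comparison of AGO1/2/3 knockout cells (18499 genes), 87 and 97% in the cytoplasmic one (17232 genes) and 64 and 94% for the difference of effects (19114 genes).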

Additional observations from a re-analysis of the deposited data

Results flagged for a closer look

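The effect of the AGO1/2 knockout differed between nuclear and cytoplasmic RNA for 32 of 55 members by edgeR's interaction test, in which H2BC15 (0.96), H4C1 (0.98) and H1-4 (0.98, all on the log2 scale) had the smallest adjusted p. Of all genes 36.5% were called. For the AGO1/2/3 knockout 19 members differed, led by H2BC15 (0.69), H4C1 (0.77) and H2BC26 (0.68), against 22.7% of all genes. With only the groups compared in the fit, 12 and 8 members were called. In all 6 cases the nuclear change was the higher one.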

How the results depend on the processing

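Of the 17 counts of called members, all stayed within 1.5 times with DESeq2 and with RLE size factors, and 16 did so without the low-count filter (AGO1/2/3 difference of effects, 36) and with only the transcripts that GENCODE 44 ends at the stem-loop (cytoplasmic AGO2, 1), which the tables hold in earlier versions of other lengths. Here and below, "difference" means the nuclear minus the cytoplasmic knockout effect. With limma on log2(TPM + 1) the counts were 6 (nuclear AGO1), 2 (nuclear AGO2), 21 (nuclear AGO1/2/3), 1 (cytoplasmic AGO1), 21 (cytoplasmic AGO1/2), 13 (cytoplasmic AGO1/2/3) and 5 (nuclear against cytoplasmic, AGO1/2/3), and the same with log2(TPM + 0.1). Nuclear against cytoplasmic in AGO1/2 knockout cells turned to 13 higher and none lower (14 with 0.1 added). With only the groups compared in the fit the counts were 19 (nuclear AGO2), 1 (cytoplasmic AGO2), 3 (cytoplasmic AGO1/2), 12 (difference, AGO1/2) and 8 (difference, AGO1/2/3). With culture passage as a replicate block the differences counted 21 (AGO1), 8 (AGO2), 47 (AGO1/2) and 46 (AGO1/2/3), and no other count moved by over 1.5 times. The block rests on the pairing taken for wild-type cells, and the knockout passages share only a number. Without both wild-type libraries of passage 29 the differences counted 4 (AGO1), 3 (AGO2), 43 (AGO1/2) and 40 (AGO1/2/3). The shares of all genes called under the alternatives are not given here. The causes were not tested.

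Leaving out each library in turn gave 31 to 47 (nuclear AGO1), 24 to 37 (AGO2), 39 to 46 (AGO1/2) and 34 to 44 (AGO1/2/3) called members, in cytoplasmic RNA 0 to 0, 1 to 5, 4 to 22 and 5 to 24, for the differences 0 to 5, 0 to 5, 22 to 48 and 8 to 40, and between fractions 53 to 54 in wild type and 48 to 49, 48 to 51, 36 to 45 and 45 to 50 in the lines. The highest cytoplasmic counts, other than that of AGO1, and the highest differences, came without the cytoplasmic wild-type library of passage 29. Of the cytoplasmic AGO1/2 counts, 5 remained without the knockout library of passage 9 or of passage 10, and 4 without that of passage 11 or the wild-type one of passage 27 or 28. The AGO2 count was 1 without the knockout library of passage 8 or 9. The AGO1/2/3 difference was 9 without the cytoplasmic wild-type library of passage 27, 8 without that of passage 28, 9 without the nuclear one of passage 29, 8 without the cytoplasmic knockout library of passage 14, and 10 and 12 without the nuclear ones of passages 12 and 14.

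Directions of single genes turned as follows, on the log2 scale with TPM + 1 and, where it rounds differently, TPM + 0.1. Nuclear against cytoplasmic in AGO1/2 knockout cells: H1-2 0.86 and 0.87, H1-4 0.80, H2AC18 0.52, H2AC19 0.23, H2BC4 0.29, H2BC5 0.54, H3C2 0.54, H4C11 0.20 and H4C14 0.29. In AGO1/2/3 knockout cells: H1-2 0.20, H1-4 0.16 and H2AC18 0.034. In AGO2 knockout cells: H2BC6 -0.31 and -0.48, H4C15 -0.12 and -0.13. Knockout against wild type: AGO2 -0.39 and -0.40 (cytoplasmic AGO1/2/3), AGO2 -0.30 and -0.31 (cytoplasmic AGO1/2), H3C6 -0.20 and -0.23 (cytoplasmic AGO1/2), H4C15 0.14 and 0.15 (nuclear AGO1/2), MACROH2A2 -0.053 and -0.056 (nuclear AGO2). With only those transcripts, H2BC6 turned between fractions to -0.77 in wild-type, -1.33 in AGO1, -2.79 in AGO2, -0.62 in AGO1/2 and -1.15 in AGO1/2/3 knockout cells.

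Depth limits the lowest members: those of a few reads a library, such as H4C9, can show only large differences. The wild-type libraries are shallower than all knockout libraries of the same fraction. Near-identical pairs cannot be separated, and levels rest on transcript models that often lack UTRs or are longer than those of GENCODE 44.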
